A study of Mus musculus with 4 samples.

Results

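The dorsal V-SVZ of P2 mice held a small population of cells that expressed Lhx6 or Nkx2-1, transcription factors of the ventral forebrain. They were taken as the cells with at least 1 unique molecular identifier (UMI, which marks a captured RNA molecule) of Lhx6 or Nkx2-1 and no UMI of Mki67, a gene of dividing cells. By this rule 112 of 4027 P2 cells were members, a share of 2.78% (exact 95% binomial interval 2.30 to 3.34), out of 19860 cells kept over all 4 libraries. The reference was the 2062 P2 cells that held neither gene, at least 2 UMIs of the neuroblast gene Dcx and at least 1 of Gad1 or Gad2, which encode the enzymes that make GABA. Both groups came from wild-type OF1 mice on postnatal day 2, whose dorsal V-SVZ was microdissected and profiled in droplets with 10x Genomics 3' version 3 chemistry. The tissue of 2 mice was pooled into a single library.

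The ventral forebrain makes different GABAergic neurons in different places. The medial ganglionic eminence (MGE) and the preoptic area express Nkx2-1, which switches on Lhx6, and send interneurons to the cortex and striatum, among them the cells that make somatostatin or parvalbumin. The lateral and caudal eminences (LGE and CGE) lack both factors, and the postnatal V-SVZ, which descends in part from the LGE, feeds the olfactory bulb with neuroblasts (NBs) that carry Meis2, Sp8 and Pax6. The comparison asked how the cells with the ventral factors differed from the other GABAergic cells of the same tissue, how mature they were and which transmitter genes they expressed.

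With 1 library at P2, no difference between conditions or animals could be tested. All values below describe this library. Intervals cover counting error only, and a cell is not a replicate. Levels are counts per 1000000 UMIs (CPM) of the UMIs summed over a group, and a gene was counted as different when its level differed at least 2-fold and at least 10% of the cells of either group held a UMI of it. Members held a median of 14224.5 UMIs and reference cells 12068, so shares of cells are also given after each cell was thinned to 5000 UMIs where they carry a statement. The labels call both mice male, but 1244 kept P2 cells held Xist and no Y-linked transcript, 2076 the reverse, 151 both and 556 neither. From Xist detection the authors reported afterwards that the P2 mice included a female. Members made up 2.97% of the cells with Xist only (37 cells, 2.10 to 4.08) and 2.65% of those with Y-linked transcripts only (55 cells, 2.00 to 3.43). The P2 library shared 5 to 9 cell barcodes with each other library, none of them a member's.

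Lhx6 (mm10, chromosome 2, 36081953 to 36105408) was found in 105 members, with up to 20 UMIs per cell, and Nkx2-1 (chromosome 12, 56531958 to 56536908) in 62, with up to 21. Both were found in 55 members, Lhx6 alone in 50 and Nkx2-1 alone in 7. Among the members, 93 also passed the Dcx and Gad criteria of the reference and 19 did not. Since members were chosen by the UMIs of Lhx6, Nkx2-1 and Mki67, these values are no finding. The other 2 markers given for this population were unequal. Nxph1 (chromosome 6, 8948431 to 9249032), which encodes a secreted ligand of neurexins, was detected in 89.3% of members (82.0 to 94.3) and 17.5% of reference cells (15.9 to 19.2). Lhx8 (chromosome 3, 154306294 to 154330659), a factor of cholinergic and preoptic lineages, was detected in 8.93% of members (10 cells) and in 1 reference cell. Nxph1 is not particular to these neurons in this tissue, since 95.2% of the 186 cells with Pdgfra and Sox10, genes of oligodendrocyte precursors, also held it.

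Cells at the edge of the rule differed from the rest. A single UMI of the 2 factors chose 20 members, 2 UMIs chose 1 and 3 or more chose 91. Among the 91, 98.9% held Nxph1, 92.3% Maf, 19.8% Meis2 and 4.40% Sp8. Among the 20 cells with a single UMI, these shares were 45%, 30%, 75% and 50%. In reference cells, just outside the rule, they were 17.5%, 7.61%, 97.7% and 79.0%. In these 4 shares the single-UMI cells lay between both groups, but not in glial genes. Slc1a3 was found in 45% of them, 16.5% of the 91 and 31.9% of reference cells, and Olig1 in 20%, 5.49% and 9.89%. Of the 20 cells, 13 passed the Dcx and Gad criteria. Every value for the 112 members includes these 20. Lhx6 was seen in 0.23% of the 869 cells with astroglial Slc1a3 and no Dcx. Another 11 cells held Lhx6 or Nkx2-1 together with Mki67 and were left out by the rule.

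Of 9624 genes that passed the detection criterion, 1091 (11.3%) were at least 2-fold higher in members and 831 (8.63%) at least 2-fold lower. The median log2 ratio over all 9624 genes was 0.01. The reference held 508 cells with Mki67 while members could hold none, so the same comparison was made between the 93 members that passed the reference's criteria and the 1554 reference cells without Mki67. There 849 of 9237 genes (9.19%) were higher and 492 (5.33%) lower. Of the 1091 higher genes, 784 were also higher in the matched comparison, where they made up 92.3% of the higher genes. Of the 831 lower genes, 363 stayed lower, which was 43.7% of the first list and 73.8% of the second.

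**Figure D1:**
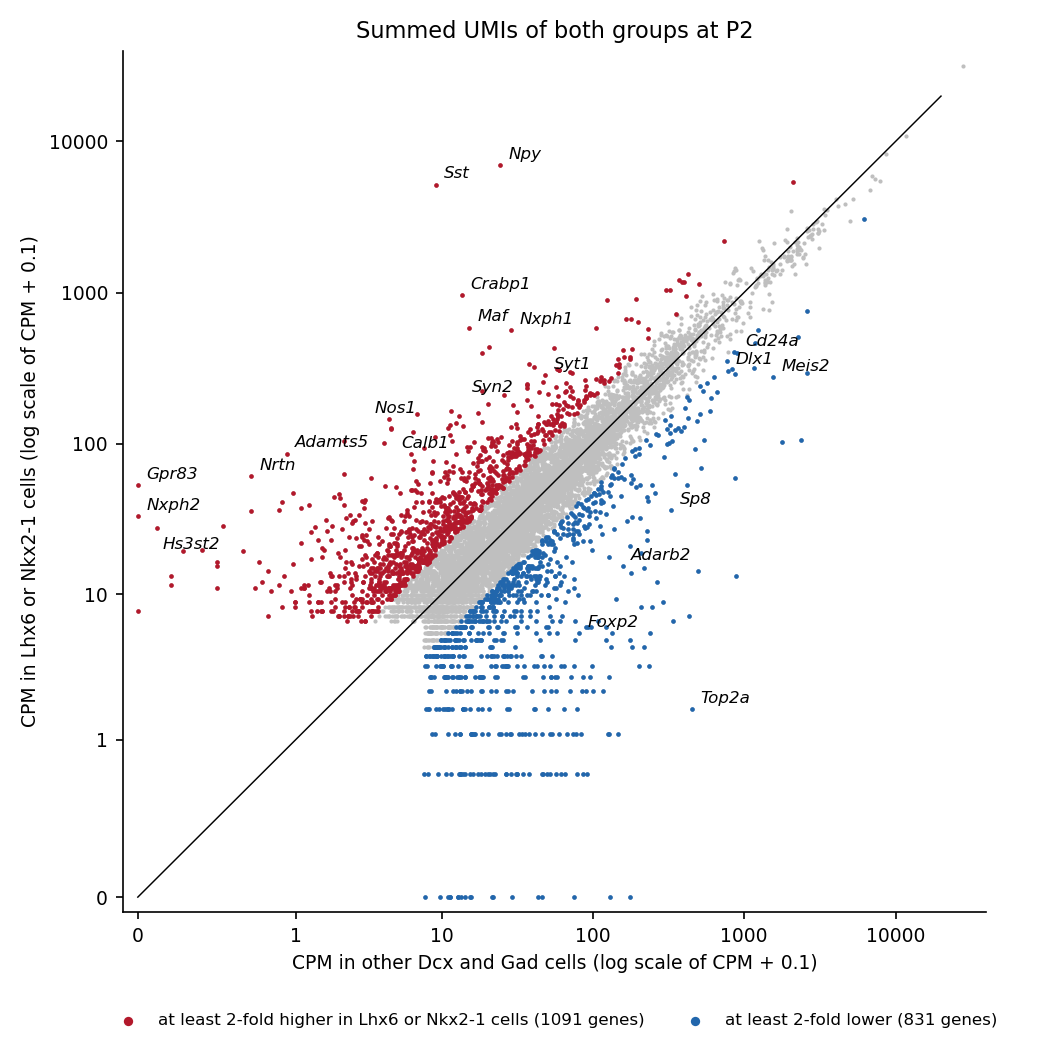
Level of each detected gene in the 112 Lhx6 or Nkx2-1 cells (vertical) against the 2062 reference cells (horizontal), as CPM on a log scale after adding 0.1, with the line of equal levels. Red points are the 1091 genes at least 2-fold higher in members and blue points the 831 at least 2-fold lower. Sst and Npy stand farthest above the line at high levels, with 5179 and 6960 CPM in members, and the rows of blue points at the bottom are genes with 0 to a few UMIs in members.

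The 15 genes with the largest ratios of members over reference cells included both neuropeptide genes Sst and Npy. Sst, which encodes somatostatin, had 5179 CPM in members and 9.17 CPM in reference cells, a ratio of 565 (501 to 638). Npy, which encodes neuropeptide Y, had 6960 CPM in members and 24.4 CPM in reference cells, a ratio of 285 (265 to 308). These sums came from few cells. Npy reached 2563 UMIs in a single member and was detected in 55 of the 112, and Sst was detected in 24.

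Several genes had almost no UMIs in reference cells. Gpr83, a G protein-coupled receptor gene, had 96 UMIs in members and 0 in reference cells, which makes its level at least 534-fold higher against a floor of 3 counts over the group. Nxph2, a paralog of Nxph1, had 60 UMIs in members and 0 in reference cells, at least 334-fold higher. Hs3st2, a heparan sulfate sulfotransferase, had 50 UMIs against 1, a ratio of 834 with the wide interval of 143 to 33597. Nrtn, which encodes the growth factor neurturin, was 132-fold higher (75.6 to 250) and the extracellular protease gene Adamts5 100-fold (65.8 to 158).

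The other genes among the 15 had varied roles. Crabp1, which encodes a retinoic acid binding protein, had 962 CPM in members and 13.6 CPM in reference cells, a ratio of 70.6 (63.4 to 78.8). The AMPA receptor auxiliary subunits Shisa6 and Cacng3 were 52.1- and 28.4-fold higher, the synaptotagmin Syt13 48.9-fold and the proteoglycan gene Spock1 47.8-fold. The transcription factor gene Maf had 586 CPM in members and 15.3 CPM in reference cells, a ratio of 38.3 (34.3 to 42.8). Cygb, which encodes cytoglobin, was 32.5-fold higher and the unnamed transcript Gm42303 108-fold. In the matched comparison all 15 of these genes remained higher, with ratios between 20.0 for Cacng3 and 506 for Hs3st2.

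The 15 largest deficits in members were all of cell division genes, among them Top2a, Knl1, Aurkb, Tpx2, Sgo1, Ckap2l, Ccna2, Ckap2, Hist1h3c, Clspn, Kif15, Spc25, Sgo2a and Pbk. The rule removed dividing members and kept dividing reference cells, so nothing is read from these. Hist1h3c also belongs to a family of near-identical histone genes. In the matched comparison a different group led the deficits. Pbx3 had a ratio of 0.046 (0.028 to 0.072), Foxp2 of 0.055 and Adarb2 of 0.081. Meis2, Sp8, the axonal protein gene Islr2 and the cyclin gene Ccnd2 were also among the 15 lowest, with ratios of 0.13, 0.12, 0.15 and 0.16.

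The regional factors separated both groups in opposite directions. Of 18 MGE and ventral genes apart from the 2 of the rule, 14 passed the detection criterion, 11 were at least 2-fold higher in members and 0 were lower, against 11.3% and 8.63% of all genes. Of the 11, 3 (Maf, Sst and Npy) passed the criterion through members only, so that the excess itself let them in. The median log2 ratio of the 14 was 2.41. Maf (chromosome 8, 115682942 to 115707794), which MGE-derived interneurons keep after they leave the germinal zone, was detected in 81.2% of members (72.8 to 88.0) and 7.61% of reference cells (6.51 to 8.84), and after thinning in 71.4% and 4.44%. Sox6, which acts downstream of Lhx6, was 2.77-fold higher. Receptors that guide migrating interneurons were also higher, with ratios of 3.50 for the neuregulin receptor Erbb4, 3.36 for the chemokine receptor Cxcr4 and 8.86 for Ackr3, which scavenges the ligand of Cxcr4. Cux2 was 10.1-fold and Mef2c 5.49-fold higher. Satb1 (ratio 0.76), Zeb2 (1.15) and Etv1 (1.49) stayed within 2-fold. The list also holds Sst and Npy.

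Genes of the LGE and olfactory bulb interneurons were lower. Of the 21 genes in this list 14 passed, of which 9 were at least 2-fold lower, 3 of them passing through reference cells only. Another 3 were higher, 1 of them passing through members only. Over all genes 8.63% were lower and 11.3% higher. The median log2 ratio of the 14 was -1.60. Meis2 (chromosome 2, 115863064 to 116065839) was detected in 29.5% of members (21.2 to 38.8) and 97.7% of reference cells (97.0 to 98.3), at 276 and 1555 CPM. Sp8 (chromosome 12, 118846329 to 118852576) was detected in 12.5% of members (7.01 to 20.1) and 79.0% of reference cells (77.2 to 80.8). After thinning, Meis2 was detected in 23.2% of members and 94.1% of reference cells and Sp8 in 8.04% and 66.3%. Meis2 is not particular to GABAergic cells in this tissue. It was found in 99.6% of glutamatergic cells (with Neurod6 or Slc17a6, Dcx and no Gad), 99.9% of the Slc1a3 cells without Dcx and 92.5% of the cells with Pdgfra and Sox10. Sp8 was found in 5.62%, 11.3% and 9.14% of these cells. Pax6 had a ratio of 0.19, Foxp2 of 0.067, Tshz1 of 0.36 and the synaptic gene Synpr of 0.35. The 3 higher genes were Calb1, Calb2 and Prokr2, whose products also mark other neurons. The lower genes were not all particular to this class either, since Sp8 is also counted among the CGE factors and Meis2 was found in other cell types.

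**Figure D2:**
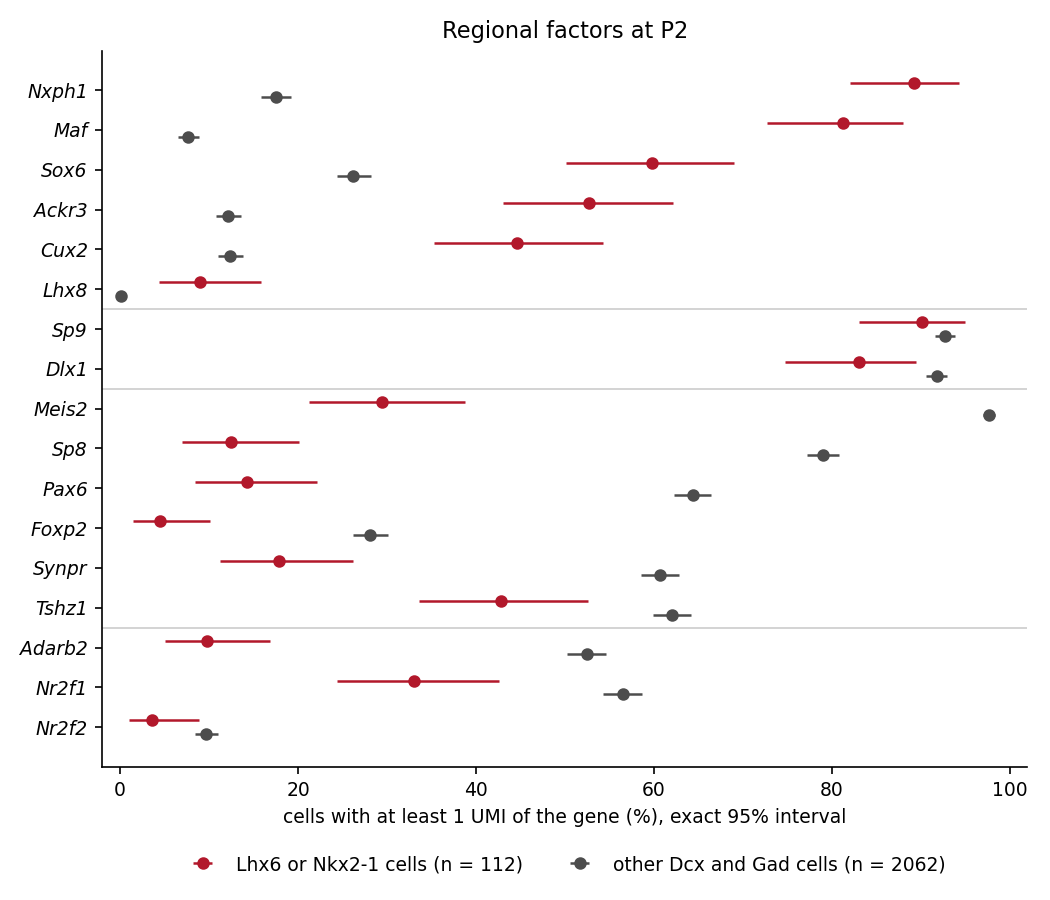
Share of cells with at least 1 UMI (horizontal, percent, with exact 95% binomial intervals) for 17 regional factors, in the 112 Lhx6 or Nkx2-1 cells (red, upper point of each pair) and the 2062 reference cells (grey, lower point). Grey lines divide ventral genes, genes of most GABAergic cells, LGE and olfactory bulb genes, and CGE genes. Maf was at 81.2% in members and 7.61% in reference cells, and Meis2 at 29.5% and 97.7%.

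CGE factors were mixed in the main comparison. Of 7 that passed, 3 were lower (Adarb2 with a ratio of 0.098, Nr2f1 of 0.46 and Sp8), against 8.63% of all genes. Adarb2 passed through reference cells only. Calb2 (3.16) was higher, against 11.3% of all genes, and 3 were within 2-fold, among them Prox1 (1.56) and Htr3a (1.08). In the matched comparison 4 of 8 were lower and 1 higher, against 5.33% and 9.19% of all genes. The median log2 ratio there was -0.98. Per cell, the 11 CGE genes took a median of 1.91 UMIs of every 10000 in members and 7.15 in reference cells. A large part of this sum came from Sp8 (36.3 CPM in members and 331 in reference cells) and Adarb2 (15.4 and 158). Sp8 was also counted among the LGE and olfactory bulb genes, so the sum is not separate from that list. Nr2f2, which most CGE cells express, fell under the detection criterion, with 3.57% of members and 9.60% of reference cells. The factors that most forebrain GABAergic cells share were expressed in both groups. Dlx1 was detected in 83.0% of members and 91.9% of reference cells, and Sp9 in 90.2% of members and 92.8% of reference cells. By level, Dlx1 (ratio 0.39), Dlx2 (0.44) and Dlx6os1 (0.33) were at least 2-fold lower, against 8.63% of all genes, and the other 4 of the 7 were not. Most genes of striatal projection neurons and of the septum and preoptic area were too rarely detected to compare. Of 12 striatal genes 4 passed, of which Foxp1 (ratio 0.31) and Foxp2 were lower and Bcl11b (0.99) and Rarb (1.46) within 2-fold. Foxp2 passed through reference cells only. Per cell, the 12 genes took a median of 2.15 UMIs of every 10000 in members and 1.51 in reference cells. Of 9 septal and preoptic genes 2 passed, Zic2 (ratio 0.18) and Meis1 (0.18), and both were lower. Both passed the criterion through reference cells only, so that no count is read from this list. Isl1, Ebf1, Zic4 and Tac2 had UMIs in 0 of 112 members, and 3 counts would make a share of 2.68% of cells with a UMI.

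Members expressed the genes of GABA signalling. Gad1 and Gad2, which helped choose the reference, were detected in 76.8% and 86.6% of members. The vesicular GABA transporter gene Slc32a1, outside the rule, had 191 CPM in members and 80.4 CPM in reference cells, a ratio of 2.37 (2.12 to 2.66), and was detected in 82.1% of members and 61.2% of reference cells. Abat, the enzyme that breaks GABA down, had a ratio of 1.48 (1.14 to 1.88). In the matched comparison Slc32a1 lay just under 2-fold, at 1.98 (1.75 to 2.23).

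Genes of other transmitters were almost absent. Of the vesicular glutamate transporters, Slc17a6 was detected in 2.68% of members and 3.06% of reference cells, Slc17a7 in 1 member and Slc17a8 in none. The cholinergic genes Chat, Slc18a3 and Slc5a7 had 0 UMIs in members, although 10 members held Lhx8. Th, which encodes the rate-limiting enzyme of dopamine synthesis, was detected in 5 members (4.46%) with 26 UMIs, against 1.16% of reference cells, while Slc6a3, the dopamine transporter gene, was not detected in members. Of 6 monoaminergic and 7 cholinergic genes none reached 10% of the cells of either group.

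Among the 14 products that divide interneurons into subtypes 6 passed the detection criterion, 5 of them through members only, so that no count is read from this list. Besides Sst and Npy these were Nos1, the neuronal nitric oxide synthase gene (27.8-fold, 22.5 to 34.6), the calcium binding protein genes Calb1 (27.1-fold, 21.9 to 33.8) and Calb2 (3.16-fold) and Penk, which encodes enkephalin (20.3-fold). Pvalb and Vip had 0 UMIs in members. Pvalb was also at 0 in reference cells. Peptide transcripts were also found in other cell types. Npy was found in 23.1% of the cells with Pdgfra and Sox10, 9.67% of the Slc1a3 cells and 9.24% of the glutamatergic cells (with Neurod6 or Slc17a6, Dcx and no Gad), at median depths of 20177, 17708 and 12656 UMIs. Sst was found in 6.99%, 6.90% and 4.02% of these cells. Among members 49.1% held Npy and 21.4% Sst, against 8.87% and 4.90% of reference cells. The reference shares did not exceed the range of the other cell types and are not read as expression, although 4 reference cells held 10 or more UMIs of Npy (up to 444) and 1 held 155 of Sst. Free RNA in the droplets was not measured. Nos1 was found in 60.2% of the glutamatergic cells and was not particular to members.

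Members carried more transcripts of mature neurons than the reference. Of 23 maturation genes that passed, 18 were at least 2-fold higher and 0 lower, against 11.3% and 8.63% of all genes, with a median log2 ratio of 1.45. Of the 18, 2 passed the detection criterion through members only. Rbfox3, which encodes the nuclear antigen NeuN, was detected in 54.5% of members (44.8 to 63.9) and 15.3% of reference cells (13.8 to 17.0), and after thinning in 25% and 8.39%. The synaptic vesicle genes Syn2 and Syt1 were 8.94-fold (7.79 to 10.2) and 5.82-fold (5.26 to 6.44) higher. Slc12a5, whose product KCC2 exports chloride and makes GABA inhibitory, was 8.25-fold higher (5.61 to 12.0), while Slc12a2, the chloride importer NKCC1, was level at 0.95 (0.63 to 1.40). Slc12a5 passed the detection criterion through members only. The long noncoding RNA Snhg11 was 22.9-fold higher. Neurofilament genes went the other way without passing the detection criterion, with Nefm detected in 0.89% of members and 6.45% of reference cells.

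Early neuronal genes were lower or level. Of 16 that passed, 4 were at least 2-fold lower (Cd24a with a ratio of 0.45, Igfbpl1 of 0.39, Btg1 of 0.33 and Dlx6os1) and 0 higher. Over all genes 8.63% were lower and 11.3% higher. The median log2 ratio of the 16 was -0.46. Dcx, which chose the reference, had 496 CPM in members and 493 CPM in reference cells, and 92.0% of members held it. Per cell, the 26 maturation genes took a median of 64.4 UMIs of every 10000 in members, 40.4 in reference cells without Mki67 and 10.8 in those with it. The distributions overlapped, and 23.9% of reference cells without Mki67 reached the median of the members. The 17 early genes (Dcx left out) took a median of 202 UMIs of every 10000 in members, 313 in reference cells without Mki67 and 234 in those with it.

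**Figure D3:**
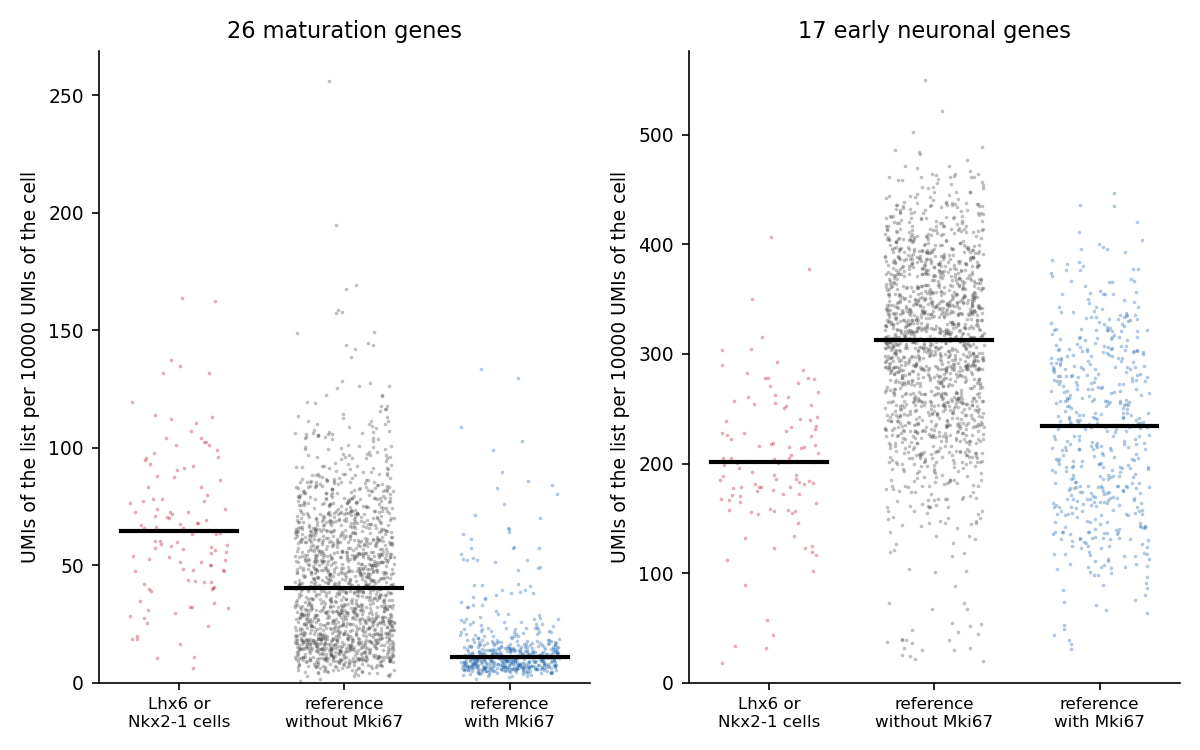
UMIs of 26 maturation genes (left) and 17 early neuronal genes (right) per 10000 UMIs of each cell, for the 112 Lhx6 or Nkx2-1 cells, the 1554 reference cells without Mki67 and the 508 with it. Each point is a cell, spread sideways at random, and the bar is the median. The medians of the maturation genes were 64.4, 40.4 and 10.8, and those of the early genes 202, 313 and 234.

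Genes for receiving and generating signals were compared next. Most of the higher genes of the receptor and channel lists passed the detection criterion through members only, so that no count is read from these lists. Of 10 GABA receptor subunits that passed 9 were at least 2-fold higher and 0 lower, against 11.3% and 8.63% of all genes, and 6 of the 9 passed through members only. Of 13 glutamate receptor subunits 9 were higher, 6 of them passing through members only, and 0 lower, with Gria1 11.8-fold (10.0 to 13.7) and Gria4 9.05-fold (7.81 to 10.5), whereas Gria2, whose subunit makes AMPA receptors impermeable to calcium, had a ratio of 0.71 and was detected in 83.9% of members and 90.5% of reference cells. Of 20 voltage-gated channel genes 12 were higher, 8 of them passing through members only, and 0 lower, among them the potassium channel gene Kcnc2 (7.87-fold). Of 20 migration and guidance genes 11 were higher, with Robo1 4.0-fold higher, and 2 were lower (Dcc with a ratio of 0.25 and Ephb1 with 0.42). Of the 11, 1 passed through members only, and both lower genes passed through reference cells only. The reference of these counts held the 508 cells with Mki67. In the matched comparison 6 of 10 GABA receptor subunits, 8 of 13 glutamate receptor subunits and 8 of 20 channel genes were higher. In each of these lists 0 were lower, against 9.19% higher and 5.33% lower of all genes. The median log2 ratios were 1.11, 1.63 and 0.86, against 1.56, 2.04 and 1.17 in the main comparison. Of 19 migration and guidance genes 10 were higher and 2 lower there.

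A comparison restricted to cells with Rbfox3 was added after these values were seen. It set 53 members that passed the Dcx and Gad criteria against 277 reference cells without Mki67. Of 9786 genes, 597 (6.1%) were higher in members and 658 (6.72%) lower. The difference in maturation genes was smaller, with 7 of 25 higher, 1 lower and a median log2 ratio of 0.56. Both groups were chosen by Rbfox3, itself a gene of mature neurons, so the size of this change is not read as a result. For GABA receptors 3 of 13 genes were higher and 1 lower, and for channels 5 of 22 and 2. Of 21 migration and guidance genes 5 were higher and 5 lower, with a median log2 ratio of 0.03, and Robo1 had a ratio of 1.17. Of 7 subtype products 5 were higher and 2, Cck (ratio 0.19) and Reln (0.40), were lower. Syn2 had a ratio of 2.18 and Slc12a5 of 2.37. The regional genes kept their difference. Of the ventral genes 11 of 14 were higher with a median log2 ratio of 2.96, and Maf was 15.3-fold (13.0 to 18.1) and Nxph1 18.7-fold higher (15.6 to 22.5). Meis2 had a ratio of 0.096 and Sp8 of 0.043. Of 9 CGE genes that passed, 6 were lower and 1 higher, with a median log2 ratio of -1.42. Gria1 and Gria4 remained 4.04- and 5.49-fold higher. The Rbfox3 reference cells also carried genes of other neurons, since 7 of 7 pallial glutamatergic genes and 8 of 8 striatal projection neuron genes that passed were lower in members there, and the part of these cells in the result was not tested.

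**Figure D4:**
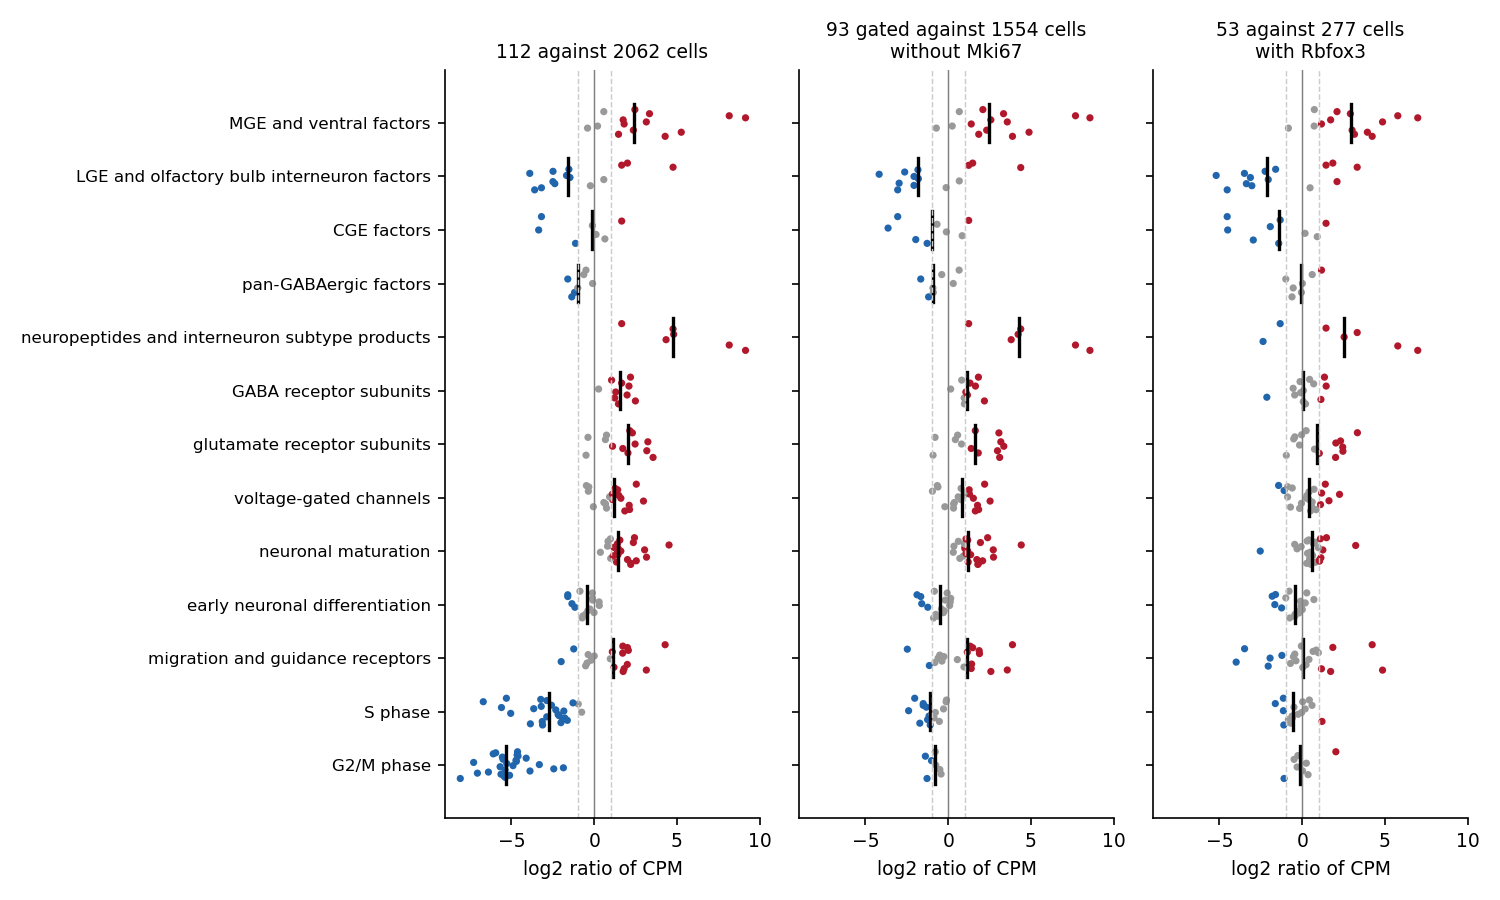
Log2 ratio of the level in members over that in the reference for the genes of 13 lists, each point a gene that passed the detection criterion and each black bar the median of its list. Red points are at least 2-fold higher and blue points at least 2-fold lower, with dashed lines at 2-fold. The left panel compares 112 with 2062 cells, the middle 93 with 1554 cells without Mki67 and the right 53 with 277 cells with Rbfox3. The median of the maturation genes was 1.45, 1.18 and 0.56 in the 3 panels, and that of the ventral genes 2.41, 2.45 and 2.96.

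The rule removed dividing members, and cell cycle genes were lower. Of 24 S phase genes 22 were lower and of 26 G2/M genes all 26, against 8.63% of all genes. Of these, 10 and 19 passed through reference cells only. In the matched comparison 9 of 16 and 3 of 7 were lower, against 5.33% of all genes. Of 14 progenitor genes that passed, 4 were at least 2-fold higher and 3 lower, against 11.3% and 8.63% of all genes. Of the 4, 1 passed through members only, and of the 3, 1 through reference cells only. In the matched comparison 1 of 11 was higher and 4 were lower, against 9.19% and 5.33% of all genes. Among the higher genes, Egfr, the receptor of a growth factor that drives V-SVZ progenitors, was detected in 29.5% of members (21.2 to 38.8) and 10.3% of reference cells (9.05 to 11.7). Its ratio was 3.50 (2.71 to 4.47), 8.71 in the matched comparison and 14.3 among Rbfox3 cells. Hes1 (ratio 2.70), Hes5 (2.39) and Fabp7 were also higher, and Vim (0.31), Nes (0.44) and Gsx2 (0.083) were lower. Glial genes depended on the members outside the Dcx and Gad criteria. Fabp7 had a ratio of 2.04 over all members and 0.36 in the matched comparison, and the median log2 ratio of 5 astrocyte genes was 0.65 and -0.47. Of 8 oligodendroglial genes only Mbp passed, Olig1 was detected in 8.04% of members and 9.89% of reference cells, and 7 microglial genes were at 0 in members.

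Members were not uniform. Among the 93 that passed the Dcx and Gad criteria, 51 with Nkx2-1 were set against 42 with Lhx6 alone. Nkx2-1 had helped choose these cells, so these values are a description. Of 6175 genes detected in at least 25% of the cells of either, with at least 30 UMIs in both together, 216 (3.5%) were at least 2-fold higher in Nkx2-1 cells and 106 (1.72%) at least 2-fold lower. Crabp1 had 1547 UMIs in Nkx2-1 cells and 5 in Lhx6-alone cells, a ratio of 247 (106 to 761), and was detected in 52.9% and 7.14% of them. Nrtn had 94 UMIs in Nkx2-1 cells and Gpr83 85, both against 0, at least 25- and 22.6-fold higher. The transcription factor genes Etv1 and Prox1 were 11.4- and 5.92-fold higher, Prokr2, the receptor of a chemoattractant for olfactory bulb NBs, 8.56-fold and Egfr 7.84-fold. In Lhx6-alone cells Nxph2 was detected in 42.9% of cells, against 3.92% of Nkx2-1 cells, and Trpc4, Cux2 and Mef2c had ratios of Nkx2-1 cells over Lhx6-alone cells of 0.22, 0.24 and 0.30. The 21 genes of the LGE and bulb list, which holds Prokr2, took a median of 27.0 UMIs of every 10000 in Nkx2-1 cells and 9.91 in Lhx6-alone cells, although Meis2 was detected in 19.6% of Nkx2-1 cells and 38.1% of Lhx6-alone cells. The maturation genes took a median of 71.7 in Nkx2-1 cells and 61.8 in Lhx6-alone cells.

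Sets of members could be described by single genes. The genes and limits were picked after the values were seen, and the sets are a description. At least 3 UMIs of Crabp1 were found in 31 members, with up to 162 UMIs. Leaving out 1 cell that also had 12 Npy UMIs, 30 were left, of which 29 held Nkx2-1, 30 Lhx6 and 28 Maf. They also held Etv1 (29 of 30 cells, a median of 17.5 UMIs), Adamts5 and Prokr2 (28 each), Prox1 (25), Gpr83 and Egfr (22 each), Hs3st2 (21) and Nrtn and the receptor gene Kit (20 each). Sst was found in 1 of these cells and Nxph2 in 1.

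At least 10 UMIs of Npy were found in 21 members and of Sst in 17, and 15 cells had both. The 22 cells with either and without Crabp1 held all Lhx6, while 8 held Nkx2-1. Their median was 357.5 UMIs of Npy and 338 of Sst, with values from 0 to 2563 and from 0 to 1550. The set was not uniform. For example, a cell with 20 UMIs of Npy and 44 of Sst held 85 of Mef2c and 0 of Nos1. The cell with 2563 UMIs of Npy held 2 of Mef2c and 45 of Nos1. Sox6 was found in 20 of the 22, Nxph2 in 13, Nos1 in 12 (up to 45 UMIs), Lhx8 in 8 and Penk in 7 (up to 27 UMIs). Gpr83 and Egfr were in none. Co-expression of Sst, Npy and Nos1 is a known trait of long-range projecting cortical GABAergic cells and of a class of striatal interneurons, and which of these cells were captured was not tested.

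The remaining 59 members had at most 9 UMIs of Npy, 2 of Sst and 2 of Crabp1. Mef2c was detected in 46 of them (up to 73 UMIs), Cux2 in 34, Npy in 32, with a median of 1 UMI, and Calb1 in 25. Hs3st2, Penk and Lhx8 were in none of the 59. The single-UMI members of the rule's edge were not removed from this set. Cells with Xist only and Y-linked transcripts only both held Crabp1 (27.0% and 43.6% of members), Sst (18.9% and 23.6%) and Npy (54.1% and 45.5%). The ratio of members over reference cells of Npy was 616 in the cells with Xist only and 136 in those with Y-linked transcripts only, that of Maf 32.3 and 47.8, and that of Meis2 0.13 and 0.18.

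**Figure D5:**
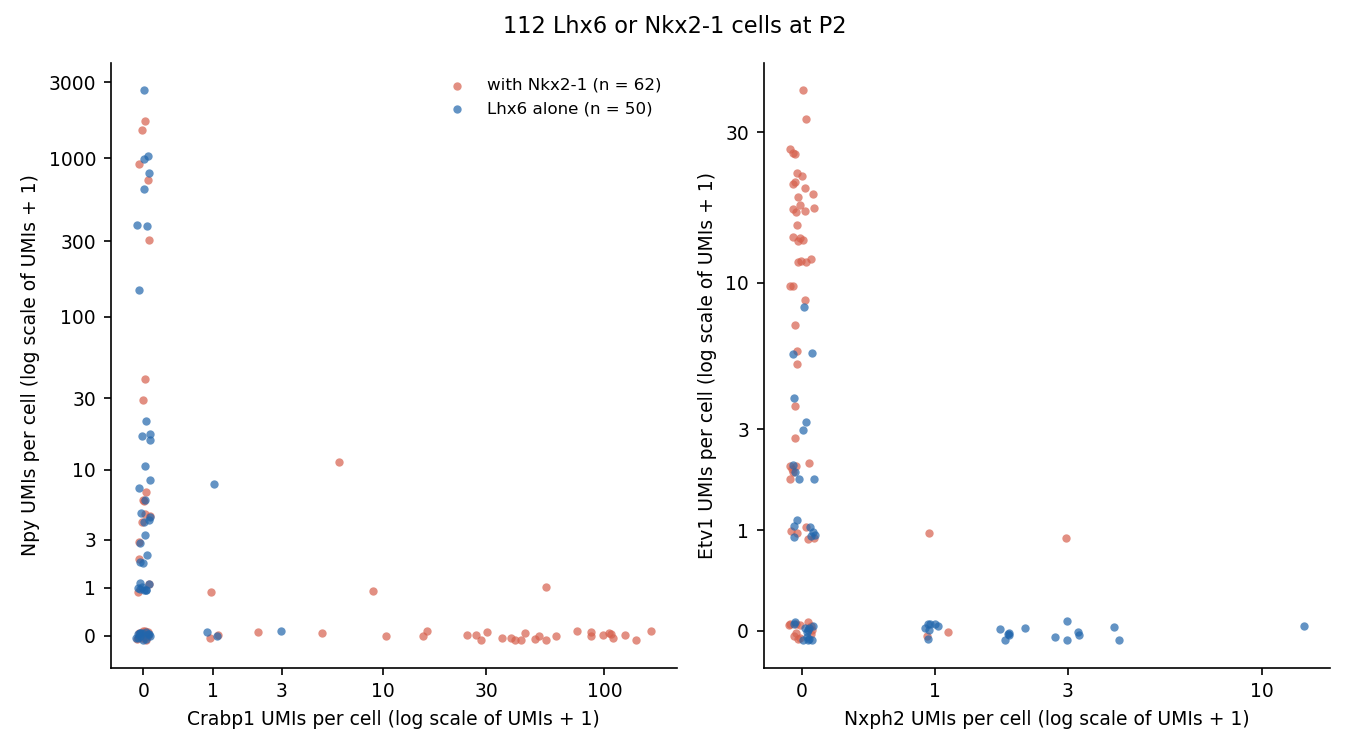
UMIs per cell in the 112 members, on log scales of UMIs + 1 with points shifted slightly at random, coloured by whether the cell held Nkx2-1 (62 cells) or Lhx6 alone (50 cells). Left, Npy (vertical) against Crabp1 (horizontal), where 1 cell held at least 10 UMIs of Npy and at least 3 of Crabp1. Right, Etv1 (vertical) against Nxph2 (horizontal), where most cells with many UMIs of Etv1 held no Nxph2.

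At P12 and P22 such cells were rare. The rule found 2 of 7006 cells in P12 replicate 1 (0.029%, 0.003 to 0.10), 4 of 4596 in P12 replicate 2 (0.087%, 0.024 to 0.22) and 5 of 4231 at P22 (0.12%, 0.038 to 0.28), against 2.78% (2.30 to 3.34) at P2. The median depths of 11851.5, 13899.5 and 11995 UMIs were close to the 14303 of P2. With 1 library at P2 and 1 at P22, age cannot be told apart from the library, and no other library held the 20 members that a test between groups would have needed. A share among captured cells also moves with the other cells captured.

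Of the 2 members in P12 replicate 1, 1 had 8 UMIs of Nkx2-1, 18 of Nxph1, 26 of Maf and 67 of Crabp1, as in the Crabp1 set of P2. The other, and all 4 in P12 replicate 2, held 1 or 2 UMIs of Lhx6, 22 to 85 of the astroglial gene Slc1a3 and none of Dcx, Gad1, Gad2, Nxph1 or Maf. At P22 all 5 members passed the Dcx and Gad criteria and held at least 1 UMI of Nkx2-1. They held 0 to 4 UMIs of Npy, 0 of Maf and 0 of Crabp1, and 1 of the 5 held Sst, with 4 UMIs.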

How the data were processed

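The authors aligned 10x Genomics 3' version 3 reads to mm10 with Cell Ranger (3.1.0 in the submitters' processing notes and in the headers of P12, 5.0.1 in those of P2 and P22) and deposited UMI counts per gene and cell barcode, whole numbers without normalization, for 31053 genes. The P2 library held 66743936 UMIs over 4608 barcodes. Cells with 2000 to 8000 detected genes and under 10% mitochondrial UMIs were kept, which left 4027 P2 cells. The members, the reference and the 27 gene lists were chosen with earlier results of these data known.

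UMIs were summed over the cells of a group, divided by the group's total and given as counts per 1000000 (CPM). Because P2 is 1 library, no test was run and genes were described by size. A gene counted as different at a 2-fold ratio if at least 10% of the cells of either group held it, and the 6 genes of the rule and 6 sex-linked genes were left out. Ratios have exact conditional Poisson 95% intervals, shares exact Clopper-Pearson intervals, and a sum of 0 was set to a floor of 3 counts over the group. The genes named were the 15 with the largest and the 15 with the smallest ratio among those detected in at least 20% of the cells of the higher group, and examples from each list. The results of some of these genes are not reported here. The intervals were checked on simulated data with known ratios, drawn with counting error only. That check does not cover the spread between cells, so the intervals can be too narrow for genes whose UMIs come from few cells. Scrublet, through scanpy 1.11.5, called 42 of 4027 cells doublets, among them 1 member and 29 reference cells. They were kept, since the rule does not remove them, and leaving them out was an alternative. Positions are from GENCODE for mm10. A test with edgeR 4.0.16 on summed counts of the other libraries had been planned for libraries with at least 20 cells in both groups, and 0 libraries qualified. Alternatives covered the filter on cells, the rule, depth, doublets, scaling with edgeR's TMM factors and the filter on genes.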

Additional observations from a re-analysis of the deposited data

Results flagged for a closer look

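Cells that met the rule were also found outside the P2 comparison, in libraries in which the report compares no groups, and above the share that 3 counts would make. P12 replicate 2 held 4 such cells, or 0.087% of its cells, where 3 counts would make 0.065%. P22 held 5, or 0.12%, where 3 counts would make 0.071%. The 4 cells of P12 replicate 2 each held 1 or 2 UMIs of Lhx6, 29 to 85 UMIs of Slc1a3 and no Nxph1, while the 5 cells of P22 held 5 to 7 UMIs of Nkx2-1 in 4 cells and 1 in the fifth.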

How the results depend on the processing

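The main comparison gave 1091 genes at least 2-fold higher in members and 831 at least 2-fold lower. The number of higher genes was 579 with cells thinned to 5000 UMIs, 2511 with no filter on low values and 597 among cells with Rbfox3, the last an alternative added after the data were seen. The number of lower genes was 412 against the reference without Mki67, 492 when members also had to pass the Dcx and Gad criteria, 506 after thinning and 1414 with no filter on low values. Fewer genes pass the detection criterion after thinning, and more without a filter. Of the 30 values of these counts under alternatives, the other 23 stayed within 1.5 times the main count, among them those with TMM factors (938 higher, 990 lower), with at least 2 UMIs of Lhx6 and Nkx2-1 together (1184 and 1071) and in cells with Xist only (1287 and 1232). TMM factors shifted the log2 ratios by a median of -0.12. None of the 30 genes named for the largest and smallest ratios, and no list median past 2-fold, changed direction under the alternatives run, although Knl1, Aurkb, Ccna2, Hist1h3c and Spc25 had no ratio among cells with Rbfox3. Of 148 list genes past 2-fold, 20 changed direction under at least 1 alternative, all 20 among cells with Rbfox3. Of these, 4 (Hes5, Fabp7, Aldoc and Ccnb1) also did when members had to pass the Dcx and Gad criteria against the reference without Mki67. Among the 20 were cell cycle genes and the higher receptor, channel and maturation genes Gabrb1, Gabrg3, Gabra5, Grin2b, Cacna1e and Camk2b. The log2 ratios of these named genes among Rbfox3 cells lay between -0.60 (Cacna1e) and -0.10 (Gabrb1). The planned edgeR and DESeq2 fits in the libraries of other ages were not run, because 0 libraries held 20 members. No paired analysis was possible because P2 is 1 library with no replicate number and no result comes from a test. The 112 members hold 1816754 UMIs, so genes near 1 CPM rest on a few counts.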
